A study of Mus musculus with 15 samples.

Results

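Gene expression in ependymoma control tumours was set against that in high-grade glioma control tumours of the mouse brain, over all genes measured. Ependymoma (EPN) is a brain tumour that resembles ventricle-lining cells and the radial glia they derive from. High-grade glioma (HGG) is an aggressive glial tumour that often carries the transcription factors of oligodendrocyte precursor cells. The libraries are those labelled EPN control 1 to 3 and HGG control 1 to 3, which are 6 of the 15 libraries of the series, with 24421 genes each. The other 9 libraries are tumours with gain or loss of function of Sox9, and of these only the Sox9-GOF (gain of function) tumours are used here, as libraries that share no sample with the controls. Genotype is labelled as EPN control or HGG control, the source as brain tumour tissue, and the RNA as poly(A) RNA, sequenced with a stranded kit. The alleles or plasmids that start either tumour, the promoter that drives them, the host strain, age and sex, and whether the 3 libraries of a group came from separate animals, are not in the labels. The p-values therefore measure the spread between these libraries, which may be in part technical, and model, tissue region and batch cannot be told apart in this design.

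In both tumours the RNA comes from bulk tissue, in which tumour cells are mixed with vessels, immune cells and brain. Lower RNA of a cell type can thus mean fewer of its cells or less RNA per cell, and these cannot be told apart. A large share of human supratentorial ependymomas carries a fusion of ZFTA with RELA, a subunit of the NF-kB transcription factor, and such tumours are known for high L1CAM. Glioma cells often keep the programme of oligodendrocyte precursors, with OLIG2 and the NOTCH ligand DLL3. SOX9 is a transcription factor of radial glia, astrocytes and cartilage.

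Promoter sequences of 4 genes are shown first, as single examples that do not stand for their gene lists. Upk3b, an epithelial gene, and Cxcl2, an NF-kB target, were higher in EPN controls. Dll3 and Hes5, of the NOTCH pathway, were lower. Cxcl2 was the 1 higher call among 25 tested NF-kB genes, and the NOTCH list had 4 higher and 4 lower calls. Each window runs from 250 bases before to 50 bases after the gene start, on the strand of the gene, from RefSeq on GRCm38.p6. The RefSeq start used for Dll3 differs from that of GENCODE, whose coordinates are given with Dll3 further on, so that the Dll3 window lies inside the GENCODE gene. Capitals mark a match to a motif. The motifs searched on both strands were 3 spellings of the kappa B site of 10 letters (NF-kB), CCATTGT (SOX factors), TGTTTAC (forkhead factors) and CAGCTG (E-box factors). The windows are chr5:136038246-136038545 (plus strand) for Upk3b, chr5:90903649-90903948 (plus strand) for Cxcl2, chr7:28301736-28302035 (minus strand) for Dll3 and chr4:154960673-154960972 (plus strand) for Hes5.
Upk3b: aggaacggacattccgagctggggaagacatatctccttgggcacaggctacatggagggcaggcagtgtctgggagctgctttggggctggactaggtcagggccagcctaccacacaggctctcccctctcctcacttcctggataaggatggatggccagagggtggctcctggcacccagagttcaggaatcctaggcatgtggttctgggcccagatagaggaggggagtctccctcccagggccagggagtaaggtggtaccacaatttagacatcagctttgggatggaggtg
Cxcl2: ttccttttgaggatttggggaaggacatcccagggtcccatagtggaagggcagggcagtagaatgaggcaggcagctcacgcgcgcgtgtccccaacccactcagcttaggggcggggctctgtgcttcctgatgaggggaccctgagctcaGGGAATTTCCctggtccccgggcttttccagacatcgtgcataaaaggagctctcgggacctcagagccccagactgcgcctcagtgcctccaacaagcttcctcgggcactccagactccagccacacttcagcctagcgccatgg
Dll3: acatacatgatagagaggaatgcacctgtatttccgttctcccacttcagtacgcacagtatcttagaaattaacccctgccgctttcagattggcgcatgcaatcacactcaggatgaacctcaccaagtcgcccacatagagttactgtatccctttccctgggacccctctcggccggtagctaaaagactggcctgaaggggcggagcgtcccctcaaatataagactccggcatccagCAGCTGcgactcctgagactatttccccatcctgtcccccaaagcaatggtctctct
Hes5: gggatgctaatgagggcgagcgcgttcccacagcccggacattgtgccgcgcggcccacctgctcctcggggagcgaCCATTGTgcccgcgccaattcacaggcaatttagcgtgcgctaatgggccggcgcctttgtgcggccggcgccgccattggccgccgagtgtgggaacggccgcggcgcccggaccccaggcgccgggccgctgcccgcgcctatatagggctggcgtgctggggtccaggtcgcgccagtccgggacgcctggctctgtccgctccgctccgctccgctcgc

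The Cxcl2 window holds a kappa B site from base 154 of the window, the Dll3 window CAGCTG from base 244 and the Hes5 window CCATTGT from base 78, and the letters searched are not in the Upk3b window. A match is a description of letters only. An NF-kB motif stood in 0.296% of the 1015 windows of genes called higher in EPN controls, in 0.148% of the 676 windows of genes called lower, and in 0.417% of the 11274 windows of all tested genes. The E-box stood in 16.3% of windows of genes called higher, 17.2% of windows of genes called lower and 15.5% of windows of all tested genes. The SOX motif stood in 1.77% of windows of genes called higher, 2.66% of those called lower and 1.94% of all tested, and the forkhead motif in 3.15% of windows of genes called higher, 2.51% of those called lower and 2.32% of all tested.

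The levels given are rescaled counts, that is, whole reads per gene divided by a size factor computed over the 6 libraries together. Reads per library ranged from 4665428 to 13830743. Of 24421 genes, 14938 had a mean of at least 10 rescaled counts and were tested with limma on log2(rescaled count + 1). A gene is called where its Benjamini-Hochberg adjusted p is under 0.05. The groups did not overlap in 6071 tested genes, or 40.6%, so that separation of the groups alone is common. Called genes numbered 2339, or 15.7% of those tested: 1425 (9.54%) were higher and 914 (6.12%) lower in EPN controls than in HGG controls. The counts of calls in each gene list below are to be read beside these shares. Calls of more than 8-fold were 358 upward and 73 downward, and the median log2 fold change of all tested genes was -0.0019. On the scale each table was deposited in, which shifts the median of all genes to -0.18, 1103 genes were called higher and 1364 lower, so the share of calls that were higher was 44.7% there and 60.9% after rescaling.

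The 3 EPN controls resembled each other more than the 3 HGG controls did. The correlation of log2 levels was 0.937 to 0.964 among EPN controls and 0.810 to 0.856 among HGG controls, and the median standard deviation of a gene on the log2 scale was 0.255 among EPN controls and 0.451 among HGG controls. The number of calls depended on the EPN libraries: it was 649, 385 and 719 without EPN control 1, 2 and 3, and 3635, 1825 and 1921 without HGG control 1, 2 and 3. Single HGG libraries stood apart for whole cell types. Ttr, the transthyretin of choroid plexus epithelium, had 17.6, 4.94 and 4.08 in EPN controls, against 92928, 95.9 and 9.47 in HGG controls. EPN control 1 had 6.50 rescaled counts of Xist and 767 of the Y-linked Ddx3y, while the other 5 libraries had 2485 to 4477 of Xist, so that sex differs between libraries and its part in the results was not tested.

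**Figure D1:**
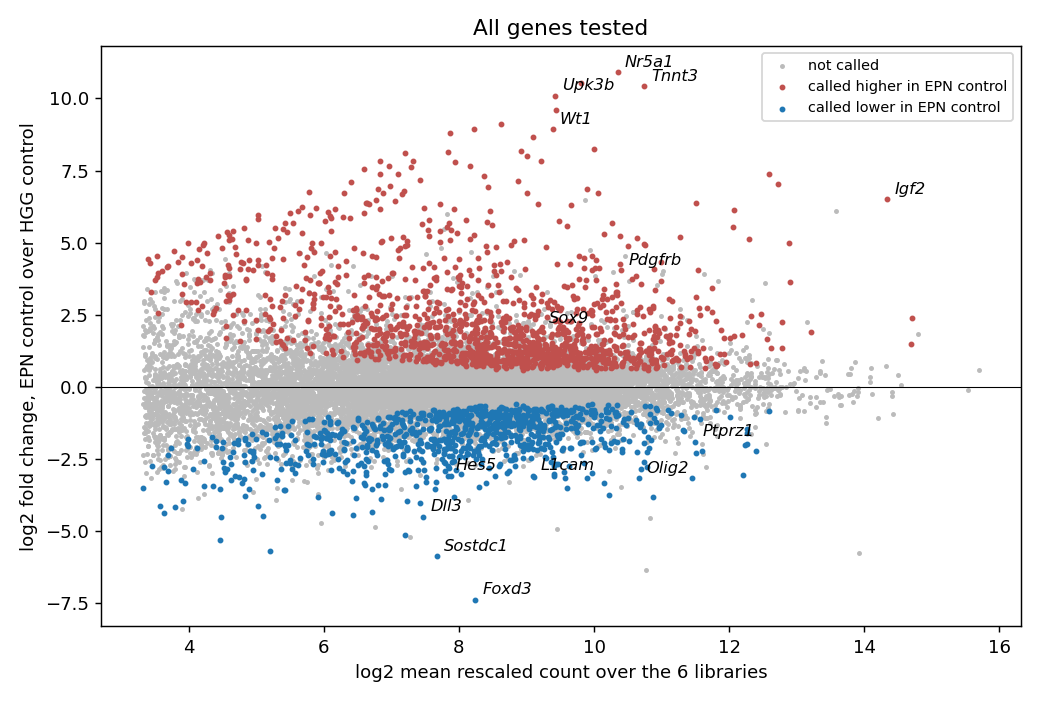
Log2 fold change, EPN control over HGG control, against the log2 mean rescaled count over the 6 libraries, 1 point per tested gene. Red points are the 1425 genes called higher and blue points the 914 called lower in EPN controls. Named points include Nr5a1 and Tnnt3 at the top and Foxd3 at the bottom.

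The 10 largest upward calls were in genes with at most 21.8 rescaled counts in any HGG control. They were chosen among calls without overlap of the groups, so that their separation is no finding. Nr5a1, the nuclear receptor SF-1 that specifies steroid-producing cells (chr2:38692656-38714542), had 2658, 2038 and 3134 in EPN controls, against 1.40, 0 and 0 in HGG controls (pooled read ratio, EPN over HGG, 4572, 95% interval 1265 to 37759, adjusted p = 0.000444). Akr1cl, an aldo-keto reductase, had 1618, 1552 and 2183 in EPN controls, against 0, 0 and 0.631 in HGG controls (pooled read ratio, EPN over HGG, 6220.2, 95% interval 1116 to 245736, adjusted p = 0.000213). Tnnt3, the troponin T of fast skeletal muscle (chr7:142498836-142516009), had 3006, 3214 and 4038 in EPN controls, against 2.11, 0 and 3.79 in HGG controls (log2 fold change 10.43, SE 0.58, adjusted p = 0.000974). HGG controls were at or close to 0 in these 3 genes. Upk3b, a uroplakin of urothelium and mesothelium whose promoter is shown above, had 669, 715 and 2729 in EPN controls, against 0 in all 3 HGG controls (at least 1455-fold higher, adjusted p = 0.00109). The gastric mucin gene Muc6 had 295, 2469.8 and 1393 in EPN controls, against 0, 0 and 1.26 in HGG controls (pooled read ratio, EPN over HGG, 2429, 95% interval 672 to 20068, adjusted p = 0.00317). Nr0b2, an orphan nuclear receptor without a DNA-binding domain, had 896, 606 and 863 in EPN controls, against 0, 1.78 and 0 in HGG controls (pooled read ratio, EPN over HGG, 2799, 95% interval 502 to 110586, adjusted p = 0.001). Upk3b was highest in EPN control 3 and Muc6 in EPN control 2.

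The other 4 of the 10 largest upward calls were Mc2r, Wt1, Atp6v1b1 and Tmem184a. Mc2r, the receptor for ACTH, had 518, 556 and 712 in EPN controls, against 0.702, 0 and 0 in HGG controls (pooled read ratio, EPN over HGG, 2079, 95% interval 373 to 82178, adjusted p = 0.000651). Wt1, a zinc-finger factor of kidney, gonad and mesothelium (chr2:105126529-105173616), had 1493, 855 and 1665 in EPN controls, against 4.21, 0 and 2.52 in HGG controls (log2 fold change 8.93, SE 0.66, adjusted p = 0.00203). For Atp6v1b1, a proton pump subunit of kidney and inner ear, the levels were 342, 697 and 366 in EPN controls, against 0 in all 3 HGG controls (at least 566-fold higher, adjusted p = 0.000955). Tmem184a, a membrane protein, had 937, 1356 and 3818 in EPN controls, against 21.8, 3.55 and 0.631 in HGG controls (log2 fold change 8.26, SE 1.01, adjusted p = 0.00632). Nr5a1, Akr1cl, Tnnt3, Upk3b, Muc6, Nr0b2, Mc2r, Wt1, Atp6v1b1 and Tmem184a kept their calls whichever library was left out.

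**Figure D2:**
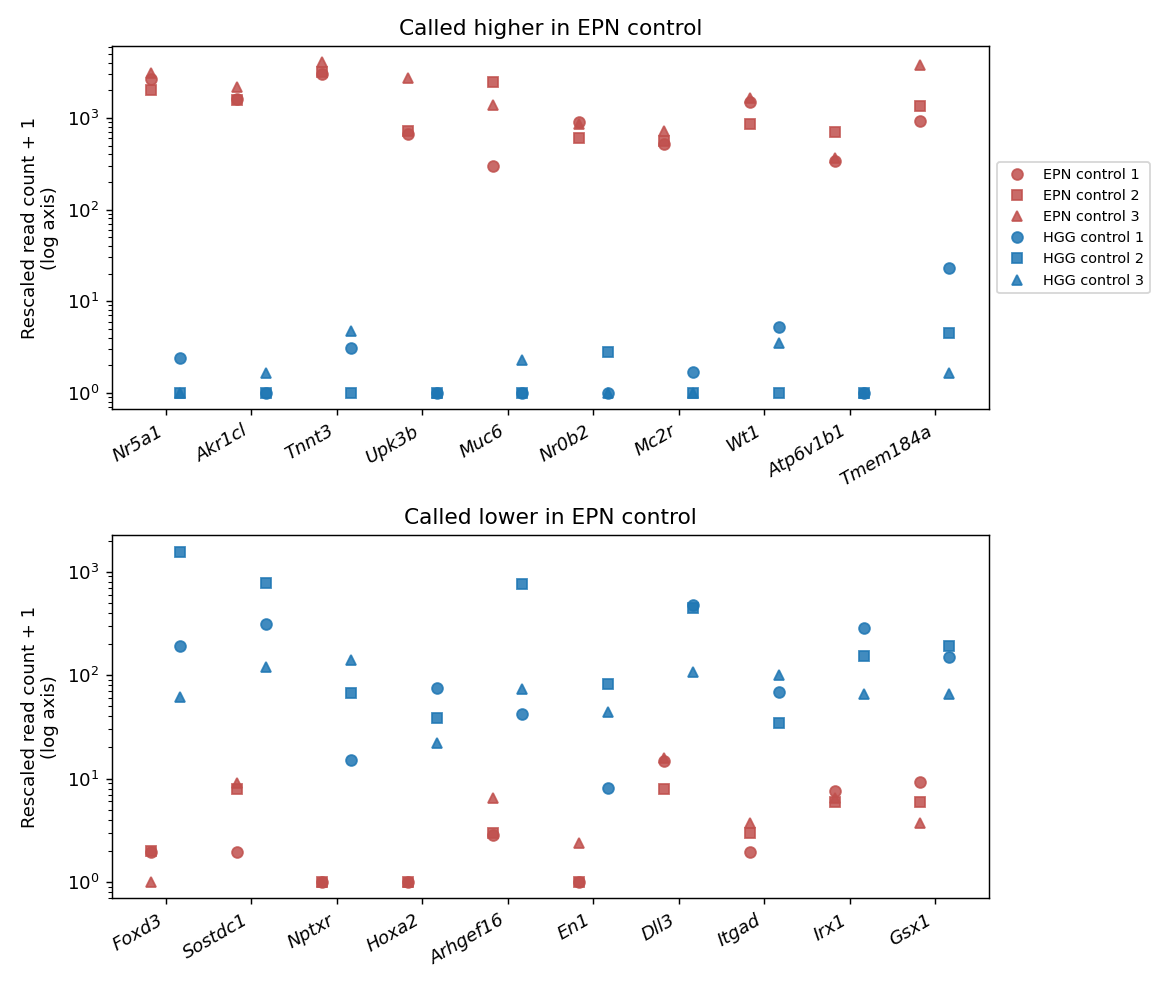
Rescaled count + 1 on a log axis for the 10 largest calls in each direction, with EPN controls in red to the left of HGG controls in blue and 1 symbol per replicate number. The genes run from Nr5a1 to Tmem184a in the upper panel and from Foxd3 to Gsx1 in the lower panel, and the separation of the groups was a condition of the choice.

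Steroid pathway genes were looked at as a list of 16, of which 7 passed the filter on low counts. Of 7 tested genes of the list, 4 were called higher and 0 lower in EPN controls, with a median log2 fold change of 1.80. Since genes such as Nr5a1 passed through the EPN libraries alone, their count is a description and no support. Fdxr, the reductase that feeds electrons to mitochondrial steroid enzymes, had 806, 823 and 881 in EPN controls, against 173, 405 and 195 in HGG controls (log2 fold change 1.80, SE 0.33, adjusted p = 0.0192). Its partner ferredoxin Fdx1 had 246, 224 and 242 in EPN controls, against 136, 133 and 116 in HGG controls (log2 fold change 0.89, SE 0.19, adjusted p = 0.0298). Cyp11a1, which makes the first cut in cholesterol, had 13.9, 21.7 and 97.9 in EPN controls, against 5.62, 1.78 and 3.16 in HGG controls (log2 fold change 2.93, SE 0.85, adjusted p = 0.0635), so it was not called although the groups did not overlap. Star, which carries cholesterol into mitochondria, had 41.8, 38.5 and 154 in EPN controls, against 61.1, 95.9 and 47.3 in HGG controls (log2 fold change -0.051, adjusted p = 0.963), and the groups overlapped. The enzymes that define adrenal and gonadal steroid output were at or near 0: Cyp11b1 had 0 reads in all 6 libraries, Cyp17a1 had 2 reads in EPN and 1 in HGG controls, and Hsd3b1 had 6 reads in EPN and 0 in HGG controls. Chosen after their values were seen, 3 more genes of gonad and adrenal development were higher in EPN controls. Nr0b1 (DAX1) had 212, 188 and 352 in EPN controls, against 0.702, 0 and 0 in HGG controls (adjusted p = 0.00132). Gata4 had 105, 819 and 444 in EPN controls, against 0.702, 0 and 0 in HGG controls (adjusted p = 0.00429). Dmrt1 had 249, 172 and 264 in EPN controls, against 0 in all 3 HGG controls (adjusted p = 0.001). Over 5 libraries, no call was made for Fdxr without any 1 of the EPN controls, and for Fdx1 without any 1 of the EPN controls or without HGG control 2 or 3. Nr0b1, Gata4 and Dmrt1 were called in all 6 sets of 5 libraries. Beyond single libraries, the call was lost for Fdx1 with the GC and length correction and on the deposited scale. Leaving out EPN control 1, 2 and 3 gave 3, 2 and 2 higher calls, and leaving out HGG control 1, 2 and 3 gave 4, 3 and 3.

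Epithelial genes, a list of uroplakins, simple keratins, claudins and mesothelial genes, were read in the same way, with 11 of 16 members tested. In EPN controls, 6 of the 11 tested genes were called higher and 0 lower (median log2 fold change 4.28), and members that passed the filter through EPN controls alone had to differ. Besides Upk3b and Wt1, the uroplakin Upk2 had 82.6, 130.4 and 35.3 in EPN controls, against 3.51, 0 and 0 in HGG controls (log2 fold change 5.48, SE 0.86, adjusted p = 0.0117). Cldn4, a claudin of tight epithelia, had 13.0, 425 and 317 in EPN controls, against 0 in all 3 HGG controls (at least 285-fold higher, adjusted p = 0.0204), with EPN control 1 far below the other EPN controls. Upk1b had 38.1, 12.8 and 32.6 in EPN controls, against 0.702, 1.78 and 3.79 in HGG controls (log2 fold change 3.22, SE 0.72, adjusted p = 0.0327). The mesothelial gene Msln had 147, 27.7 and 58.4 in EPN controls, against 1.40, 1.78 and 32.8 in HGG controls (adjusted p = 0.101), and here HGG control 3 lay inside the EPN range. Leaving out 1 library ended the call for Upk2 without EPN control 1 or 2, for Cldn4 without EPN control 2 or 3, and for Upk1b without any 1 of the EPN controls or without HGG control 2. The call also ended for Cldn4 with a pseudocount of 8. With EPN control 1, 2 and 3 left out in turn there were 3, 2 and 3 higher calls, and with HGG control 1, 2 and 3 left out 7, 4 and 6. Under other settings the higher calls numbered 3 with a minimum mean of 50.

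Troponin and sarcomere genes were called in both directions. The list had 9 tested genes, of which 2 were called higher and 1 lower in EPN controls, and its median log2 fold change was 0.49, with 9 of 14 members tested. Tnnt3 and the cardiac troponin I gene Tnni3 were higher, the second with 59.4, 64.2 and 298 in EPN controls, against 10.5, 3.55 and 6.94 in HGG controls (log2 fold change 3.82, SE 0.74, adjusted p = 0.0216). Myh7, the slow and cardiac myosin heavy chain, was lower with 6.50, 0.988 and 14.95 in EPN controls, against 63.9, 51.5 and 121 in HGG controls (log2 fold change -3.59, SE 0.83, adjusted p = 0.0356). Tnni2, the fast muscle partner of Tnnt3 and its neighbour on chromosome 7, had 11.1, 23.7 and 23.1 in EPN controls, against 2.81, 7.10 and 10.7 in HGG controls (adjusted p = 0.177). Dropping a library took away the call for Tnni3 without any 1 of the EPN controls, and for Myh7 without EPN control 1 or 2 or without HGG control 2 or 3.

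Among genes known from ependymomas with the ZFTA-RELA fusion, several growth and signalling genes were higher in EPN controls, while L1cam was lower. Higher calls in EPN controls numbered 7 and lower calls 1 among 23 tested genes, around a median log2 fold change of 0.92. Wwtr1, the YAP partner TAZ, had 1703, 1743 and 1628 in EPN controls, against 253, 479 and 223 in HGG controls (log2 fold change 2.49, SE 0.30, adjusted p = 0.0063). Lmx1b, a LIM homeobox factor, had 164, 96.8 and 102 in EPN controls, against 0.702, 5.33 and 3.79 in HGG controls (log2 fold change 4.99, SE 0.62, adjusted p = 0.00632). Plagl1, an imprinted zinc-finger gene, had 239, 344 and 264 in EPN controls, against 89.9, 35.5 and 50.5 in HGG controls (log2 fold change 2.33, SE 0.38, adjusted p = 0.0132). The receptor gene Ephb2 was nearly constant over the EPN controls, with 1971, 2020.4 and 1980.2 in EPN controls, against 548, 543 and 199 in HGG controls (log2 fold change 2.35, SE 0.40, adjusted p = 0.0154). L1cam, an adhesion molecule of neurons and the usual marker of human fusion-positive tumours, had 58.5, 87.9 and 135 in EPN controls, against 257, 1788 and 959 in HGG controls (log2 fold change -3.09, SE 0.72, adjusted p = 0.036). Every EPN library was below every HGG library for L1cam, and the HGG controls spread widely. Neuron genes, which are given further on, were highest in HGG control 3 and L1cam in HGG control 2, and the part of neurons in L1cam was not tested. With 1 library left out, the call was lost for Plagl1 and Ephb2 without any 1 of the EPN controls, and for L1cam without any 1 of the EPN controls or without HGG control 2 or 3. Wwtr1 and Lmx1b kept their calls whichever library was left out. There were 2, 2 and 2 higher calls without EPN control 1, 2 and 3, and 9, 6 and 4 without HGG control 1, 2 and 3.

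Rela itself was not called, with 739.8, 932 and 629 in EPN controls, against 661, 795 and 550.4 in HGG controls (log2 fold change 0.19, adjusted p = 0.583). No value is given for Zfta. In a list of NF-kB subunits and targets the share of calls was below that of all genes. Among the 25 tested genes, 1 was called higher in EPN controls and 1 lower, with a median log2 fold change of 0.39. Cxcl2, a neutrophil-attracting chemokine with the motif shown above, had 97.5, 212 and 23.1 in EPN controls, against 3.51, 0 and 2.52 in HGG controls (log2 fold change 4.99, SE 0.99, adjusted p = 0.0232). Its relative Cxcl1, whose promoter window holds the same spelling of the site from base 180, had 91.0, 64.2 and 20.4 in EPN controls, against 11.9, 3.55 and 10.1 in HGG controls (adjusted p = 0.061) and was not called. Nfkbib, an inhibitor that holds NF-kB in the cytoplasm, was lower with 225, 277 and 194 in EPN controls, against 486, 371 and 390.0 in HGG controls (log2 fold change -0.84, SE 0.22, adjusted p = 0.0469). Nfkb1 had 1032, 1182 and 818 in EPN controls, against 621, 536 and 699 in HGG controls (adjusted p = 0.0651). The threshold was missed over 5 libraries for Cxcl2 without EPN control 1 or 2, and for Nfkbib without any 1 of the EPN controls or without any 1 of the HGG controls. Beyond single libraries, the call was lost for Nfkbib with the GC and length correction and with no filter on low values.

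Insulin-like growth factor genes held the most abundant of the large differences. With 16 genes tested, 6 passed the threshold as higher and 0 as lower in EPN controls (median log2 fold change 0.80). Igf2, the fetal growth factor (chr7:142650766-142666816), had 30896, 57812 and 32556 in EPN controls, against 3362, 87.0 and 262 in HGG controls (log2 fold change 6.50, SE 1.25, adjusted p = 0.0209). HGG control 1 had more than 10 times the Igf2 of the other HGG controls but stayed below every EPN control. Igf2r, the receptor that clears IGF2, had 2289.8, 2541 and 1494 in EPN controls, against 509.7, 211 and 352 in HGG controls (log2 fold change 2.61, SE 0.37, adjusted p = 0.00898). The binding protein gene Igfbp7 had 5115, 5771 and 4516 in EPN controls, against 1430.2, 701 and 737 in HGG controls (log2 fold change 2.50, SE 0.31, adjusted p = 0.00632). The insulin receptor gene Insr was higher by less, with 537, 574 and 521 in EPN controls, against 292, 366 and 278 in HGG controls (log2 fold change 0.81, SE 0.18, adjusted p = 0.0315). With 5 libraries the call ended for Igf2 and Insr without any 1 of the EPN controls or without HGG control 3, and for Igf2r without EPN control 2. Igfbp7 passed the threshold in each set of 5 libraries. The call also ended for Igf2 with edgeR, and for Insr with the GC and length correction and on the deposited scale. Sets of 5 libraries gave 2, 1 and 2 higher calls without EPN control 1, 2 and 3, and 6, 5 and 3 without HGG control 1, 2 and 3. Under other settings the higher calls numbered 3 with the GC and length correction.

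Of the 10 largest downward calls, 5 were in transcription factors of development. Foxd3, a factor of neural crest (chr4:99656299-99658622), had 0.928, 0.988 and 0 in EPN controls, against 190.3, 1563 and 60.0 in HGG controls (pooled read ratio, HGG over EPN, 493, 95% interval 136 to 4074, adjusted p = 0.0121). Hoxa2, which patterns the hindbrain, had 0 in all 3 EPN controls, against 74.4, 37.3 and 20.8 in HGG controls (at least 42.2-fold lower, adjusted p = 0.008). En1, a factor of the border between midbrain and hindbrain, had 0, 0 and 1.36 in EPN controls, against 7.02, 81.7 and 42.9 in HGG controls (pooled read ratio, HGG over EPN, 98.1, 95% interval 17.3 to 3906, adjusted p = 0.0343). EPN controls were at or next to 0 for these 3 genes, and HGG control 2 was the highest library for Foxd3 and En1. The Iroquois factor Irx1 had 6.50, 4.94 and 5.44 in EPN controls, against 284, 153 and 65.0 in HGG controls (log2 fold change -4.43, SE 0.58, adjusted p = 0.00759). Gsx1, a homeobox factor of ventral and dorsal interneuron progenitors, had 8.35, 4.94 and 2.72 in EPN controls, against 148, 188 and 64.4 in HGG controls (log2 fold change -4.38, SE 0.58, adjusted p = 0.00778).

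The other 5 of the 10 largest downward calls were Sostdc1, Nptxr, Arhgef16, Dll3 and Itgad. Sostdc1, a secreted blocker of BMP and WNT signals, had 0.928, 6.91 and 8.15 in EPN controls, against 308, 781 and 119 in HGG controls (log2 fold change -5.89, SE 0.88, adjusted p = 0.0106). Nptxr, a receptor for synaptic pentraxins, had 0 in all 3 EPN controls, against 14.0, 65.7 and 140.1 in HGG controls (at least 73.6-fold lower, adjusted p = 0.0132). Arhgef16, an exchange factor for small GTPases, had 1.86, 1.98 and 5.44 in EPN controls, against 40.7, 760.0 and 73.2 in HGG controls (log2 fold change -5.13, SE 1.11, adjusted p = 0.0291). The leukocyte integrin gene Itgad had 0.928, 1.98 and 2.72 in EPN controls, against 67.4, 33.7 and 98.5 in HGG controls (log2 fold change -4.48, SE 0.61, adjusted p = 0.00807). In a set of 5 libraries the call was lost for Foxd3, Nptxr and Arhgef16 without any 1 of the EPN controls, for En1 without any 1 of the EPN controls or without HGG control 2 or 3, and for Sostdc1 without EPN control 2. The calls of Hoxa2, Irx1, Gsx1 and Itgad held with any 1 library left out. Among other settings the call was lost for En1 and Arhgef16 with a pseudocount of 8.

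Genes of a list of Hox and other patterning factors were low in both tumours. Only 3 of 18 listed genes passed the filter, through HGG controls, and 2 were called lower. Hoxa3 had 0 in all 3 EPN controls, against 47.7, 17.8 and 8.84 in HGG controls (at least 24.3-fold lower, adjusted p = 0.0218). Hoxa5 had 0.928, 0 and 0 in EPN controls, against 10.5, 37.3 and 22.7 in HGG controls (pooled read ratio, HGG over EPN, 57.0, 95% interval 9.90 to 2281, adjusted p = 0.0205). Forebrain patterning factors did not share a direction. Of 13 tested genes of the list, 1 was called higher and 1 lower in EPN controls, with a median log2 fold change of -0.33. This share of calls was near the 15.7% of all tested genes. Otx1 was higher with 204, 217 and 247 in EPN controls, against 30.9, 24.9 and 81.4 in HGG controls (log2 fold change 2.45, SE 0.46, adjusted p = 0.02), and the nuclear receptor gene Nr2f1 was lower with 212, 165 and 141 in EPN controls, against 412, 803 and 627 in HGG controls (log2 fold change -1.79, SE 0.30, adjusted p = 0.0141). Over 5 libraries, no call was made for Hoxa3, Hoxa5 and Otx1 without any 1 of the EPN controls, and for Nr2f1 without EPN control 2 or 3. These losses cover only sets in which the gene passed the filter, which Hoxa3 did not without HGG control 1 nor Hoxa5 without HGG control 2. Without HGG control 1, 2 and 3 in turn the Hox list gave 2, 1 and 1 lower calls. Other settings ended the call for Hoxa3 with a pseudocount of 8.

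Oligodendrocyte precursor genes were lower in EPN controls where called. In EPN controls, 0 of the 20 tested genes were called higher and 7 lower (median log2 fold change -1.82). The share called lower is thus above the 6.12% of all tested genes. Olig2, which specifies oligodendrocytes and is common in glioma cells (chr16:91225457-91228677), had 282, 283 and 328 in EPN controls, against 3535, 3947 and 1368 in HGG controls (log2 fold change -3.17, SE 0.41, adjusted p = 0.00729). Olig1 had 995, 809.8 and 1011 in EPN controls, against 6789, 13603 and 5064 in HGG controls (log2 fold change -3.05, SE 0.37, adjusted p = 0.0063). In both genes the EPN controls were tightly grouped, while HGG controls 1 and 2 were above HGG control 3. Ptprz1, a receptor phosphatase of precursors and radial glia, had 1139.8, 1353 and 1083 in EPN controls, against 5066, 5597 and 3108 in HGG controls (log2 fold change -1.91, SE 0.26, adjusted p = 0.0086). Nkx2-2 had 56.6, 48.4 and 43.5 in EPN controls, against 696, 385 and 138 in HGG controls (log2 fold change -2.74, SE 0.58, adjusted p = 0.0268). The protocadherin gene Pcdh15 had 71.5, 85.9 and 111 in EPN controls, against 282, 582 and 183 in HGG controls (log2 fold change -1.81, SE 0.45, adjusted p = 0.0423). The lower calls numbered 4, 3 and 5 without EPN control 1, 2 and 3 and 7, 5 and 16 without HGG control 1, 2 and 3.

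The precursor genes Pdgfra and Sox10 were not called. Pdgfra, the PDGF receptor of precursors, had 1196, 993 and 1022 in EPN controls, against 2384, 6222 and 1039 in HGG controls (adjusted p = 0.209). Sox10 had 1409.9, 1826 and 1738 in EPN controls, against 5977, 7294 and 964 in HGG controls (adjusted p = 0.358). In both, HGG controls 1 and 2 were above every EPN control, whereas HGG control 3 fell within the EPN range for Pdgfra and below it for Sox10. The summed level of the 20 precursor genes was 16082, 17322 and 18035 in the EPN controls, against 51002, 84787 and 24187 in the HGG controls. Leaving out 1 library ended the call for Nkx2-2 without any 1 of the EPN controls or without HGG control 2, and for Pcdh15 without any 1 of the EPN controls or without HGG control 1 or 2. Olig2, Olig1 and Ptprz1 were called in all 6 sets of 5 libraries.

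**Figure D3:**
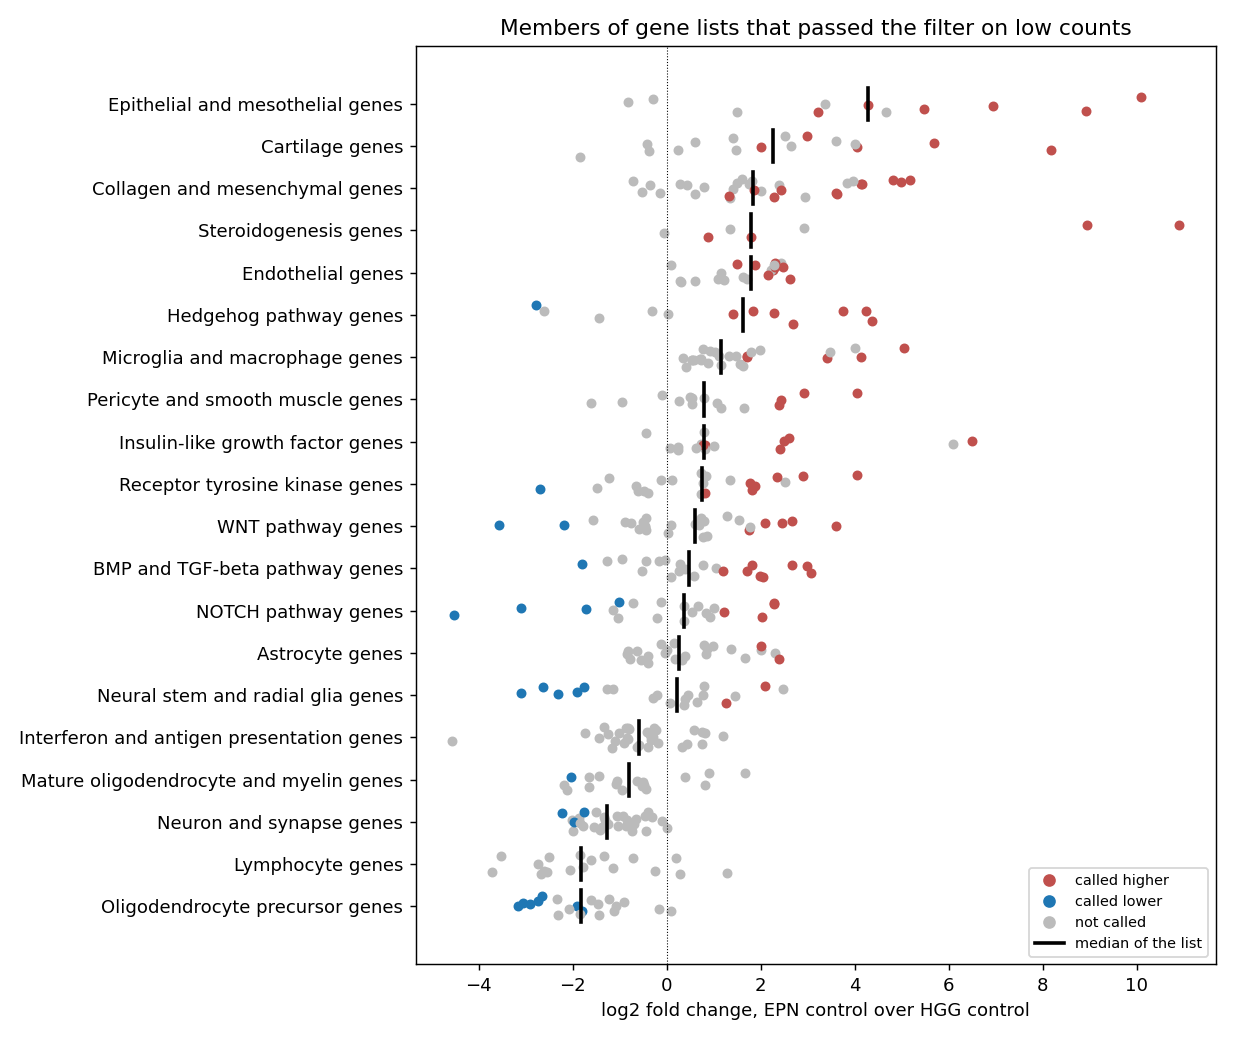
Log2 fold change, EPN control over HGG control, of the members of 20 gene lists that passed the filter on low counts, 1 point per gene, with red for calls higher, blue for calls lower and gray for no call, and a black bar at the median. Medians run from 4.28 for epithelial genes to -1.82 for oligodendrocyte precursor genes, and the calls among precursor genes are all blue, that is, lower in EPN controls.

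Myelin genes of mature oligodendrocytes gave 1 lower call, a share below the 6.12% of all tested genes. The list had 18 tested genes, of which 0 were called higher and 1 lower in EPN controls, and its median log2 fold change was -0.80. The called gene was Fa2h, which makes the hydroxylated fatty acids of myelin, with 116, 68.1 and 130.5 in EPN controls, against 375, 717 and 271 in HGG controls (log2 fold change -2.04, SE 0.43, adjusted p = 0.0271). Mag, Opalin and Cnp had adjusted p values of 0.053, 0.0532 and 0.0651 and were not called. Dropping a library took away the call for Fa2h without any 1 of the EPN controls.

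NOTCH pathway genes were called in both directions. Higher calls in EPN controls numbered 4 and lower calls 4 among 20 tested genes, around a median log2 fold change of 0.37. Dll3, a ligand that dampens NOTCH signals within the cell (chr7:28293553-28302238, minus strand), had 13.9, 6.91 and 14.95 in EPN controls, against 477, 442 and 105 in HGG controls (log2 fold change -4.52, SE 0.66, adjusted p = 0.00994). Hes5, a NOTCH target that keeps neural progenitors undifferentiated, had 46.4, 48.4 and 29.9 in EPN controls, against 226, 772 and 255 in HGG controls (log2 fold change -3.09, SE 0.52, adjusted p = 0.0139). Hes6, which opposes other HES factors, had 217, 151 and 139 in EPN controls, against 363, 360.5 and 286 in HGG controls (log2 fold change -1.01, SE 0.24, adjusted p = 0.0404). The receptor gene Notch2 was higher with 1234, 1645 and 991 in EPN controls, against 255, 220.2 and 309.9 in HGG controls (log2 fold change 2.28, SE 0.25, adjusted p = 0.00515). Lfng, a glycosyltransferase that tunes NOTCH receptors, had 2029.9, 1712 and 1491 in EPN controls, against 355, 362 and 589 in HGG controls (log2 fold change 2.03, SE 0.25, adjusted p = 0.00671). Dll4, a ligand of endothelial tip cells, had 129.9, 183 and 171 in EPN controls, against 23.9, 51.5 and 26.5 in HGG controls (log2 fold change 2.28, SE 0.38, adjusted p = 0.0135). Endothelial genes moved in the direction of Dll4, and their part in it was not tested. With 1 library left out, the call was lost for Dll3 without EPN control 2, for Hes5 and Dll4 without any 1 of the EPN controls, and for Hes6 without any 1 of the EPN controls or without any 1 of the HGG controls. The calls of Notch2 and Lfng held with any 1 library left out. Among other settings the call was lost for Hes6 with the GC and length correction. Leaving out EPN control 1, 2 and 3 gave 2, 2 and 2 higher calls, and leaving out HGG control 1, 2 and 3 gave 4, 4 and 4. With EPN control 1, 2 and 3 left out in turn there were 1, 0 and 1 lower calls, and with HGG control 1, 2 and 3 left out 4, 2 and 3.

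Neural stem and radial glia genes went both ways. Among the 20 tested genes, 2 were called higher in EPN controls and 5 lower, with a median log2 fold change of 0.23. Sox3 was lower with 39.0, 91.8 and 63.9 in EPN controls, against 521, 511 and 208 in HGG controls (log2 fold change -2.62, SE 0.48, adjusted p = 0.0182), Fabp7, a fatty acid carrier of radial glia, was lower with 691, 884 and 945 in EPN controls, against 3176, 9349 and 2385 in HGG controls (log2 fold change -2.31, SE 0.50, adjusted p = 0.0298), and Hopx was lower with 95.6, 131 and 93.8 in EPN controls, against 266, 298 and 580.0 in HGG controls (log2 fold change -1.75, SE 0.35, adjusted p = 0.0229). Lifr, the receptor for leukaemia inhibitory factor, was higher with 1153, 1011 and 749 in EPN controls, against 150.2, 302 and 249 in HGG controls (log2 fold change 2.09, SE 0.31, adjusted p = 0.0105), as was the RNA-binding protein gene Msi2 with 1417, 1935 and 1683 in EPN controls, against 916, 666 and 541 in HGG controls (log2 fold change 1.27, SE 0.24, adjusted p = 0.0208). The threshold was missed over 5 libraries for Sox3, Fabp7, Hopx and Msi2 without any 1 of the EPN controls, and for Lifr without EPN control 1 or 2. Other settings ended the call for Sox3 and Msi2 with the GC and length correction, and for Fabp7 with the spread of all 15 libraries. There were 1, 1 and 1 lower calls without EPN control 1, 2 and 3, and 6, 5 and 6 without HGG control 1, 2 and 3.

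Sox9, the gene the series is about, was higher in EPN controls than in HGG controls. It had 918, 911 and 1038 in EPN controls, against 193, 247 and 276 in HGG controls (chr11:112782224-112787760; log2 fold change 2.01, SE 0.19, adjusted p = 0.00429), and the lowest EPN control was above the highest HGG control by more than 3 times. Across the family the picture was mixed. With 16 genes tested, 2 passed the threshold as higher and 4 as lower in EPN controls (median log2 fold change -0.35). Sox8, a partner of Sox9 and Sox10 in glia, had 188, 210.3 and 298 in EPN controls, against 1348, 2659.9 and 833 in HGG controls (log2 fold change -2.66, SE 0.44, adjusted p = 0.0133). Sox21 had 25.1, 34.6 and 35.3 in EPN controls, against 75.8, 188 and 87.7 in HGG controls (log2 fold change -1.75, SE 0.43, adjusted p = 0.0404). Sox12 had 209.8, 120.5 and 183 in EPN controls, against 713, 664 and 295 in HGG controls (log2 fold change -1.63, SE 0.40, adjusted p = 0.042). Sox7, a factor of vessels, was higher with 49.2, 74.1 and 53.0 in EPN controls, against 14.0, 19.5 and 24.6 in HGG controls (log2 fold change 1.56, SE 0.38, adjusted p = 0.0416). Sox2 had 627, 399.9 and 583 in EPN controls, against 2217, 1218 and 571 in HGG controls (adjusted p = 0.163), with HGG control 3 inside the EPN range. With 5 libraries the call ended for Sox8 without EPN control 1 or 2, for Sox21 and Sox7 without any 1 of the EPN controls or without HGG control 2 or 3, and for Sox12 without any 1 of the EPN controls or without HGG control 1 or 2. Sox9 was called in all 6 sets of 5 libraries. Beyond single libraries, the call was lost for Sox21 with the GC and length correction, with no filter on low values and with the spread of all 15 libraries, for Sox12 with the GC and length correction, and for Sox7 on the deposited scale and with no filter on low values. Sets of 5 libraries gave 0, 0 and 1 lower calls without EPN control 1, 2 and 3, and 4, 2 and 5 without HGG control 1, 2 and 3. The count of lower calls was 1 with the GC and length correction.

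Cartilage genes, many of them known targets of SOX9 in cartilage, were higher in EPN controls where called and varied between EPN libraries. Of 16 tested genes of the list, 5 were called higher and 0 lower in EPN controls, with a median log2 fold change of 2.26. Ucma, a matrix protein of growth cartilage, had 606, 1531 and 752 in EPN controls, against 0.702, 1.78 and 5.05 in HGG controls (log2 fold change 8.18, SE 0.59, adjusted p = 0.00194). The aggrecan gene Acan had 862, 4538 and 1878 in EPN controls, against 34.4, 79.9 and 17.7 in HGG controls (log2 fold change 5.69, SE 0.74, adjusted p = 0.00749). The collagen gene Col9a1 had 485, 3531 and 1688 in EPN controls, against 140.4, 121 and 36.6 in HGG controls (log2 fold change 4.04, SE 0.82, adjusted p = 0.0248). Col11a1 had 1363, 6507 and 4227 in EPN controls, against 991, 403 and 186 in HGG controls (log2 fold change 2.99, SE 0.77, adjusted p = 0.0474). EPN control 2 was the highest library for all 4 genes and EPN control 1 the lowest EPN library, and Sox9 was nearly equal in these 2 libraries. The part of Sox9 in the levels of these genes was not tested. Sox9 is itself a member of the list. In a set of 5 libraries the call was lost for Col9a1 without EPN control 2 or 3, and for Col11a1 without any 1 of the EPN controls or without HGG control 2 or 3. Ucma and Acan passed the threshold in each set of 5 libraries. The call also ended for Col11a1 with the GC and length correction, on the deposited scale and with edgeR. The higher calls numbered 5, 3 and 3 without EPN control 1, 2 and 3 and 6, 6 and 4 without HGG control 1, 2 and 3.

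Astrocyte genes gave a share of higher calls near the 9.54% of all tested genes. In EPN controls, 2 of the 24 tested genes were called higher and 0 lower (median log2 fold change 0.26). Clu, a secreted chaperone of astrocytes, had 38204, 51519 and 44424 in EPN controls, against 6443, 7694 and 12413 in HGG controls (log2 fold change 2.38, SE 0.34, adjusted p = 0.00896). Gfap, the astrocyte filament gene, had 22788, 15648 and 16205 in EPN controls, against 4536, 11842 and 18400.4 in HGG controls (adjusted p = 0.308). The water channel gene Aqp4 had 1883, 3346 and 3010.4 in EPN controls, against 113, 1299.8 and 1981 in HGG controls (adjusted p = 0.226). For Gfap and Aqp4 the groups overlapped and HGG control 1 was the lowest library. Over 5 libraries, no call was made for Clu without EPN control 2. Leaving out EPN control 1, 2 and 3 gave 0, 0 and 0 lower calls, and leaving out HGG control 1, 2 and 3 gave 5, 0 and 0.

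Neuron genes leaned lower in EPN controls, and HGG control 3 had the highest summed level. The list had 30 tested genes, of which 0 were called higher and 3 lower in EPN controls. Of all tested genes 6.12% were called lower, and so few calls are not read as a result about the list. Its median log2 fold change was -1.27, and 29 of 30 fold changes were negative. Without HGG control 3 the median was -0.41. Dcx, a microtubule protein of migrating young neurons, had 65.9, 70.1 and 74.8 in EPN controls, against 428, 378 and 227 in HGG controls (log2 fold change -2.23, SE 0.29, adjusted p = 0.00758). Gap43, a growth cone protein, had 318, 366 and 367 in EPN controls, against 1330.5, 991 and 1926 in HGG controls (log2 fold change -1.96, SE 0.26, adjusted p = 0.00796). The RNA-binding protein gene Elavl3 had 276, 198 and 339.8 in EPN controls, against 545, 1005 and 1288 in HGG controls (log2 fold change -1.75, SE 0.37, adjusted p = 0.0273). The summed level of the 30 genes was 12566, 14003 and 24408 in the EPN controls, against 15429, 36949.6 and 100099 in the HGG controls. HGG control 1 lay inside the EPN range of these sums, and HGG control 3 was above all other libraries. Leaving out 1 library ended the call for Gap43 without EPN control 2, and for Elavl3 without any 1 of the EPN controls or without HGG control 2 or 3. Dcx kept its call whichever library was left out. With EPN control 1, 2 and 3 left out in turn there were 2, 1 and 2 lower calls, and with HGG control 1, 2 and 3 left out 13, 4 and 2.

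Interneuron genes and genes of other neuron subtypes gave few calls, and interneuron genes were counted first. Higher calls in EPN controls numbered 1 and lower calls 1 among 15 tested genes, around a median log2 fold change of -0.93. The share of calls was below the 15.7% of all tested genes. Maf, a factor of interneurons and also of macrophages, was higher with 1561, 780.1 and 928 in EPN controls, against 103, 107 and 124 in HGG controls (log2 fold change 3.22, SE 0.29, adjusted p = 0.00352), and Reln, a secreted protein of layer-forming neurons, was lower with 65.0, 58.3 and 102 in EPN controls, against 161, 755 and 332 in HGG controls (log2 fold change -2.22, SE 0.57, adjusted p = 0.0465). Of 13 tested factors of excitatory neurons, 0 were called by limma, 1 had an unadjusted p under 0.05, edgeR called 0 and DESeq2 called 3. Of 20 neurotransmitter receptor genes, 1 was called lower, the AMPA receptor gene Gria4, with 110.5, 208 and 217 in EPN controls, against 411, 362 and 452 in HGG controls (log2 fold change -1.24, SE 0.30, adjusted p = 0.041). That share was below the 6.12% called lower of all tested genes. Dropping a library took away the call for Reln without any 1 of the EPN controls or without HGG control 2 or 3, and for Gria4 without any 1 of the EPN controls or without any 1 of the HGG controls. Maf was called in all 6 sets of 5 libraries. Beyond single libraries, the call was lost for Reln with no filter on low values. There were 0, 0 and 0 lower calls among interneuron genes without EPN control 1, 2 and 3, and 7, 0 and 0 without HGG control 1, 2 and 3. The count of lower calls among interneuron genes was 0 with no filter on low values.

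Hedgehog pathway genes changed in most of the list. Among the 12 tested genes, 7 were called higher in EPN controls and 1 lower, with a median log2 fold change of 1.63. Co-receptors and mediators were higher: the co-receptor gene Cdon had 1951, 1112 and 951 in EPN controls, against 52.0, 83.5 and 66.3 in HGG controls (log2 fold change 4.25, SE 0.33, adjusted p = 0.0022). Its relative Boc had 737, 521 and 474 in EPN controls, against 70.9, 119 and 179 in HGG controls (log2 fold change 2.30, SE 0.37, adjusted p = 0.0131). Gli3, which acts mostly as a repressor of the pathway, had 513, 571 and 349 in EPN controls, against 35.1, 23.1 and 48.0 in HGG controls (log2 fold change 3.75, SE 0.35, adjusted p = 0.00395). Smo, the signal transducer, had 1259.5, 1100.1 and 1218 in EPN controls, against 389.7, 662 and 343 in HGG controls (log2 fold change 1.42, SE 0.27, adjusted p = 0.0206). The ligand gene Shh was lower with 2.78, 1.98 and 1.36 in EPN controls, against 21.1, 8.88 and 37.9 in HGG controls (log2 fold change -2.77, SE 0.72, adjusted p = 0.0485). Ptch1 and Gli1, whose RNA is a readout of pathway activity, were not called: Ptch1 had 164, 151 and 132 in EPN controls, against 136, 245 and 187 in HGG controls (adjusted p = 0.472). Gli1 had 4.64, 0 and 8.15 in EPN controls, against 5.62, 62.1 and 27.1 in HGG controls (adjusted p = 0.177). The groups overlapped for both readouts, and further higher calls of the list included Gli2 and the co-receptor gene Gas1 (log2 fold change 2.68 and 1.84). The Gas1 call was lost on the deposited scale, with edgeR and with no filter on low values. With 1 library left out, the call was lost for Boc without EPN control 1 or 2, and for Smo and Shh without any 1 of the EPN controls. Shh was also not called without HGG control 3, where the list gave 0 lower calls. Cdon and Gli3 passed the threshold in each set of 5 libraries. The call also ended for Shh with the GC and length correction and with a pseudocount of 8. Sets of 5 libraries gave 3, 3 and 4 higher calls without EPN control 1, 2 and 3, and 6, 7 and 6 without HGG control 1, 2 and 3.

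WNT pathway genes were called in both directions. With 27 genes tested, 5 passed the threshold as higher and 2 as lower in EPN controls (median log2 fold change 0.61). Wnt5a had 643, 347 and 521 in EPN controls, against 89.2, 51.5 and 96.6 in HGG controls (log2 fold change 2.66, SE 0.35, adjusted p = 0.00758). Wnt5b had 558, 360.4 and 546 in EPN controls, against 58.3, 28.4 and 34.1 in HGG controls (log2 fold change 3.61, SE 0.35, adjusted p = 0.00429). Sfrp1, a secreted WNT blocker, had 3044, 5047 and 4405 in EPN controls, against 1052, 685 and 578 in HGG controls (log2 fold change 2.45, SE 0.30, adjusted p = 0.0063). Of the paired ubiquitin ligases that remove WNT receptors, Znrf3 was higher with 370.3, 406 and 488 in EPN controls, against 83.6, 133 and 81.4 in HGG controls (log2 fold change 2.10, SE 0.27, adjusted p = 0.00691) and Rnf43 lower with 28.8, 16.8 and 25.8 in EPN controls, against 83.6, 159.8 and 95.9 in HGG controls (log2 fold change -2.18, SE 0.39, adjusted p = 0.0174). Sp5, a target of canonical WNT signals, was lower with 0, 3.95 and 5.44 in EPN controls, against 20.4, 67.5 and 34.7 in HGG controls (log2 fold change -3.56, SE 0.90, adjusted p = 0.0447). The threshold was missed over 5 libraries for Rnf43 without any 1 of the EPN controls, and for Sp5 without any 1 of the EPN controls or without HGG control 2 or 3. The calls of Wnt5a, Wnt5b, Sfrp1 and Znrf3 held with any 1 library left out. Among other settings the call was lost for Sp5 with the GC and length correction and with edgeR.

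BMP and TGF-beta genes were higher in EPN controls where called, with 1 exception. Of 22 tested genes of the list, 8 were called higher and 1 lower in EPN controls, with a median log2 fold change of 0.49. The ligand genes Tgfb3, with 1583, 1542 and 1486 in EPN controls, against 222, 206 and 131 in HGG controls (log2 fold change 3.07, SE 0.23, adjusted p = 0.0022), and Bmp7, with 2698, 2164 and 3357 in EPN controls, against 423, 655 and 276 in HGG controls (log2 fold change 2.66, SE 0.35, adjusted p = 0.00733), were higher. So was the receptor gene Tgfbr1, with 1422, 1499 and 1287 in EPN controls, against 431, 352 and 518 in HGG controls (log2 fold change 1.71, SE 0.19, adjusted p = 0.00555). Smad7, an inhibitor that TGF-beta signals induce, had 837, 781 and 724 in EPN controls, against 180.4, 206 and 176 in HGG controls (log2 fold change 2.05, SE 0.17, adjusted p = 0.00258). The BMP antagonist gene Nog was lower with 15.8, 12.8 and 8.15 in EPN controls, against 33.0, 60.4 and 41.0 in HGG controls (log2 fold change -1.79, SE 0.45, adjusted p = 0.045). With 5 libraries the call ended for Nog without any 1 of the EPN controls or without HGG control 2 or 3. Tgfb3, Bmp7, Tgfbr1 and Smad7 kept their calls whichever library was left out. Other settings ended the call for Nog with the GC and length correction and with no filter on low values. The higher calls numbered 5, 4 and 7 without EPN control 1, 2 and 3 and 7, 6 and 6 without HGG control 1, 2 and 3.

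Receptor tyrosine kinase genes included 7 higher calls. In EPN controls, 7 of the 22 tested genes were called higher and 1 lower (median log2 fold change 0.75). Pdgfrb, the PDGF receptor of pericytes and mesenchyme (chromosome 18), had 2719, 2713 and 2224 in EPN controls, against 129, 128 and 215 in HGG controls (log2 fold change 4.05, SE 0.25, adjusted p = 0.00126). Axl, a receptor of macrophages and mesenchymal tumour cells, had 5759, 7753 and 8269 in EPN controls, against 2368, 1511 and 2385 in HGG controls (log2 fold change 1.81, SE 0.26, adjusted p = 0.00981). Epha2, an ephrin receptor, had 272, 309 and 217 in EPN controls, against 78.6, 81.7 and 54.3 in HGG controls (log2 fold change 1.89, SE 0.27, adjusted p = 0.00924). Ntrk3, the receptor for neurotrophin 3, was lower with 91.0, 98.8 and 109 in EPN controls, against 572, 985 and 485 in HGG controls (log2 fold change -2.70, SE 0.30, adjusted p = 0.00515). In a set of 5 libraries the call was lost for Axl without EPN control 2, and for Epha2 without EPN control 1 or 2. Pdgfrb and Ntrk3 were called in all 6 sets of 5 libraries. Leaving out EPN control 1, 2 and 3 gave 2, 1 and 3 higher calls, and leaving out HGG control 1, 2 and 3 gave 7, 7 and 4.

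Brakes on ERK signalling, which receptor tyrosine kinases feed, went both ways. The list had 17 tested genes, of which 3 were called higher and 2 lower in EPN controls, and its median log2 fold change was -0.049. Nf1, the RAS-inactivating tumour suppressor gene, had 748, 932 and 844 in EPN controls, against 352, 465 and 406 in HGG controls (log2 fold change 1.05, SE 0.18, adjusted p = 0.0163), so its RNA was present in every HGG control at a lower level. Whether Nf1 is altered in the HGG model is not in the labels. Spred1 was higher with 1467, 1607 and 1714 in EPN controls, against 878, 1101 and 938 in HGG controls (log2 fold change 0.72, SE 0.17, adjusted p = 0.0354) and Spred3 lower with 65.0, 87.9 and 59.8 in EPN controls, against 449, 405 and 248 in HGG controls (log2 fold change -2.33, SE 0.31, adjusted p = 0.00759). Spry1 was lower with 157, 144 and 149.5 in EPN controls, against 564, 767 and 251 in HGG controls (log2 fold change -1.66, SE 0.41, adjusted p = 0.0424), and Etv5, an ETS factor that ERK signals induce, was higher with 2312, 2888 and 2551 in EPN controls, against 1236, 977 and 851 in HGG controls (log2 fold change 1.35, SE 0.20, adjusted p = 0.0104). Over 5 libraries, no call was made for Nf1 without any 1 of the EPN controls, for Spred1 without any 1 of the EPN controls or without HGG control 3, for Spry1 without any 1 of the EPN controls or without HGG control 1 or 2, and for Etv5 without EPN control 2. Spred3 passed the threshold in each set of 5 libraries. The call also ended for Spred1 with the GC and length correction and on the deposited scale, and for Spry1 with the GC and length correction. With EPN control 1, 2 and 3 left out in turn there were 1, 0 and 1 higher calls, and with HGG control 1, 2 and 3 left out 3, 4 and 2.

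Among 14 tested drivers and tumour suppressors, Nf1 was the 1 gene called, a share below the 15.7% of all tested genes. Trp53 had 389, 412 and 337 in EPN controls, against 802, 330.3 and 483 in HGG controls (log2 fold change -0.41, adjusted p = 0.423), and the groups overlapped. Myc had 158, 164 and 129 in EPN controls, against 1181, 376 and 333 in HGG controls (adjusted p = 0.053), so the groups did not overlap but the difference was not called. RNA levels do not show whether a gene carries a mutation.

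Collagen and mesenchymal genes were higher in EPN controls where called. Higher calls in EPN controls numbered 11 and lower calls 0 among 30 tested genes, around a median log2 fold change of 1.84. Col1a1, the main chain of fibrillar collagen, had 12703, 20569.7 and 10757 in EPN controls, against 339, 1079.6 and 235 in HGG controls (log2 fold change 4.995, SE 0.58, adjusted p = 0.00578). The proteoglycan gene Lum had 379, 361 and 656 in EPN controls, against 19.7, 17.8 and 39.1 in HGG controls (log2 fold change 4.17, SE 0.41, adjusted p = 0.00429). Col12a1 had 2779, 2016 and 1276 in EPN controls, against 161, 154 and 51.8 in HGG controls (log2 fold change 4.13, SE 0.51, adjusted p = 0.00633). Fn1, the fibronectin gene, had 10692, 20934 and 10836 in EPN controls, against 1936, 533 and 1226 in HGG controls (log2 fold change 3.63, SE 0.52, adjusted p = 0.00926). Twist1, a factor of mesenchymal transition, had 291, 290.3 and 226 in EPN controls, against 19.7, 3.55 and 8.20 in HGG controls (log2 fold change 4.81, SE 0.57, adjusted p = 0.0061). Snai2, another such factor, had 101, 145 and 87.0 in EPN controls, against 15.4, 3.55 and 8.84 in HGG controls (log2 fold change 3.60, SE 0.56, adjusted p = 0.0116). The summed level of the 30 genes was 116321, 129604 and 109750.0 in the EPN controls, against 21762, 85217 and 15616 in the HGG controls, so HGG control 2 was much closer to the EPN controls than the other HGG controls were. Leaving out 1 library ended the call for Fn1 without EPN control 2, and for Snai2 without EPN control 1 or 2. The calls of Col1a1, Lum, Col12a1 and Twist1 held with any 1 library left out. There were 6, 4 and 7 higher calls without EPN control 1, 2 and 3, and 14, 17 and 9 without HGG control 1, 2 and 3.

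**Figure D4:**
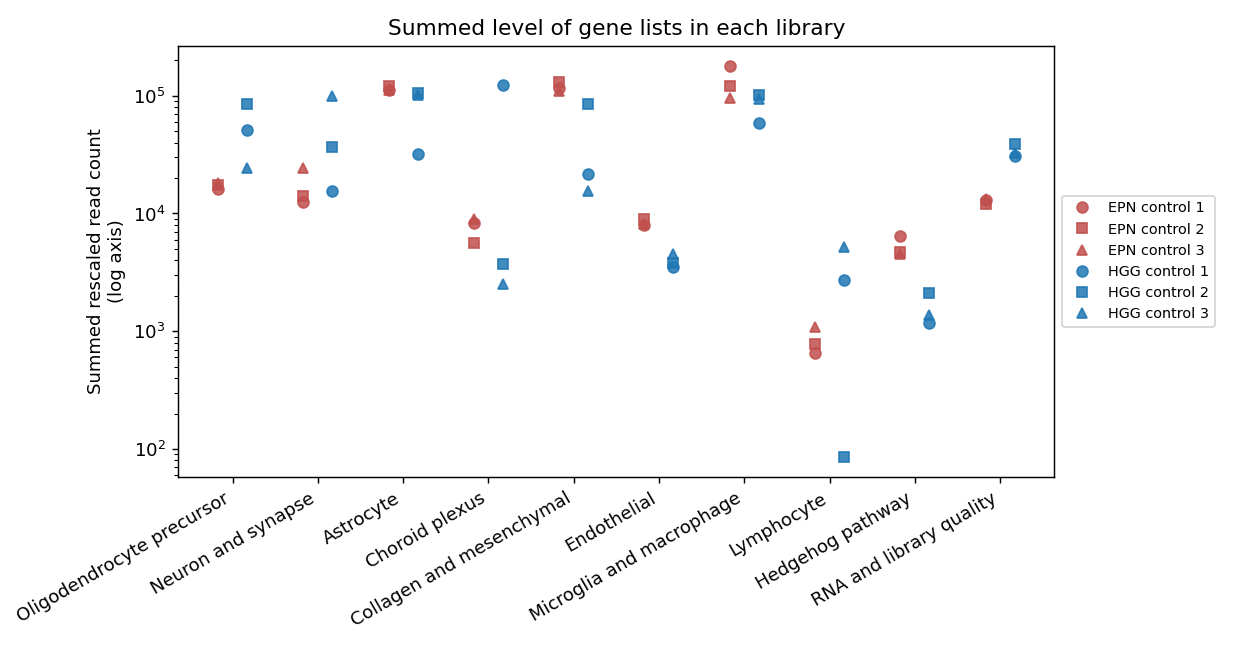
Summed rescaled counts of 10 gene lists in each library on a log axis, EPN controls in red to the left of HGG controls in blue, 1 symbol per replicate number. Hedgehog and endothelial sums are higher in all EPN controls and precursor and quality sums lower, whereas choroid plexus RNA is high in HGG control 1 alone, neuron RNA is highest in HGG control 3 and lymphocyte RNA is lowest in HGG control 2.

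Vessel genes were higher in EPN controls where called. Among the 20 tested genes, 8 were called higher in EPN controls and 0 lower, with a median log2 fold change of 1.80, and all 20 fold changes were positive. Cdh5, the cadherin of endothelial junctions, had 444, 534 and 576 in EPN controls, against 61.1, 74.6 and 122 in HGG controls (log2 fold change 2.63, SE 0.30, adjusted p = 0.00555). Emcn, a surface mucin of veins and capillaries, had 213, 202 and 329 in EPN controls, against 52.0, 35.5 and 42.3 in HGG controls (log2 fold change 2.47, SE 0.30, adjusted p = 0.0063). Vwf had 831, 557 and 649.7 in EPN controls, against 82.1, 154 and 190.0 in HGG controls (log2 fold change 2.31, SE 0.35, adjusted p = 0.0109). Tie1 had 287, 345 and 402 in EPN controls, against 44.2, 78.1 and 99.7 in HGG controls (log2 fold change 2.27, SE 0.35, adjusted p = 0.0111). Pericyte and smooth muscle genes gave 4 higher calls among 15. Besides Pdgfrb these were Rgs5, with 307, 364 and 313 in EPN controls, against 21.8, 72.8 and 46.7 in HGG controls (log2 fold change 2.93, SE 0.44, adjusted p = 0.0109), Abcc9, with 148, 197 and 188 in EPN controls, against 19.7, 33.7 and 46.7 in HGG controls (log2 fold change 2.45, SE 0.38, adjusted p = 0.0115), and Kcnj8, with 84.5, 124 and 97.9 in EPN controls, against 9.83, 16.0 and 39.1 in HGG controls (log2 fold change 2.39, SE 0.53, adjusted p = 0.0322). Dropping a library took away the call for Vwf and Rgs5 without any 1 of the EPN controls, for Tie1 and Abcc9 without EPN control 2 or 3, and for Kcnj8 without any 1 of the EPN controls or without HGG control 2. Cdh5 and Emcn kept their calls whichever library was left out. Sets of 5 libraries gave 3, 2 and 2 higher calls among endothelial genes without EPN control 1, 2 and 3, and 13, 8 and 10 without HGG control 1, 2 and 3. The higher calls among pericyte and smooth muscle genes numbered 2, 1 and 1 without EPN control 1, 2 and 3 and 5, 3 and 4 without HGG control 1, 2 and 3.

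Microglia and macrophage genes had positive fold changes in all 27 tested genes. With 27 genes tested, 5 passed the threshold as higher and 0 as lower in EPN controls (median log2 fold change 1.16). The share called higher is above the 9.54% of all tested genes. Mrc1, the mannose receptor of border macrophages, had 963, 976 and 636 in EPN controls, against 75.8, 3.55 and 45.4 in HGG controls (log2 fold change 5.06, SE 1.02, adjusted p = 0.0237). Gpr34 had 338, 344 and 424 in EPN controls, against 9.83, 56.8 and 13.3 in HGG controls (log2 fold change 4.15, SE 0.63, adjusted p = 0.0112). The microglia gene Cx3cr1 had 3698, 2873 and 2257 in EPN controls, against 598, 735 and 1561 in HGG controls (log2 fold change 1.71, SE 0.39, adjusted p = 0.035). Tmem119, also of microglia, had 4310.4, 2873 and 1676 in EPN controls, against 539.9, 867 and 1243 in HGG controls (log2 fold change 1.72, SE 0.44, adjusted p = 0.0452). Spp1, the osteopontin gene, had 6083, 8204 and 3820.5 in EPN controls, against 1732, 135 and 665 in HGG controls (log2 fold change 3.42, SE 0.89, adjusted p = 0.0482). Called by edgeR were 2 genes of this list. With 1 library left out, the call was lost for Mrc1 and Gpr34 without any 1 of the EPN controls, for Cx3cr1 without any 1 of the EPN controls or without HGG control 2, for Tmem119 without any 1 of the EPN controls or without HGG control 1 or 2, and for Spp1 without any 1 of the EPN controls or without HGG control 3. Beyond single libraries, the call was lost for Cx3cr1 with edgeR, for Tmem119 on the deposited scale and with edgeR, and for Spp1 on the deposited scale, with edgeR, with no filter on low values and with the spread of all 15 libraries. Leaving out EPN control 1, 2 and 3 gave 0, 0 and 0 higher calls, and leaving out HGG control 1, 2 and 3 gave 7, 4 and 8. The count of higher calls was 3 on the deposited scale and 2 with edgeR.

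Lymphocyte and antigen presentation genes followed single libraries. Of 18 tested genes of the list, 0 were called higher and 0 lower in EPN controls, with a median log2 fold change of -1.81. The summed lymphocyte level was 654, 785 and 1085 in the EPN controls, against 2742, 85.2 and 5188 in the HGG controls. Cd8a, of cytotoxic T cells, had 5.57, 12.8 and 2.72 in EPN controls, against 177, 3.55 and 644 in HGG controls (adjusted p = 0.214). H2-Eb1, a class II presentation gene, had 56.6, 116 and 9.51 in EPN controls, against 4687, 32.0 and 6014 in HGG controls (adjusted p = 0.181). HGG controls 1 and 3 were above every EPN control for both genes, while HGG control 2 was within the EPN range. At an unadjusted p under 0.05 limma gave 0 of the 18 lymphocyte genes, edgeR called 0 and DESeq2 6. Of 31 interferon and antigen presentation genes 0 were called by limma and by edgeR, 1 had an unadjusted p under 0.05, and DESeq2 called 2. Among 6 tested neutrophil genes, Camp was called higher, with 28.8, 14.8 and 25.8 in EPN controls, against 0 in all 3 HGG controls (at least 27.4-fold higher, adjusted p = 0.0112). Without EPN control 1, 2 and 3 in turn the neutrophil list gave 0, 0 and 0 higher calls, so the Camp call was lost in each of these sets. With EPN control 1, 2 and 3 left out in turn there were 0, 0 and 0 lower calls among lymphocyte genes, and with HGG control 1, 2 and 3 left out 0, 10 and 0.

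Cilia genes, the hallmark of mature ependymal cells, gave 1 call, a share below the 15.7% of all tested genes. In EPN controls, 1 of the 17 tested genes was called higher and 0 lower (median log2 fold change -0.70). Foxj1, the master factor of motile cilia, had 114, 82.0 and 54.4 in EPN controls, against 253, 128 and 112 in HGG controls (log2 fold change -0.93, adjusted p = 0.18), and the groups overlapped. Hydin, of the central pair of motile cilia, was the 1 gene called, with 459, 527 and 449.9 in EPN controls, against 6.32, 3.55 and 8.20 in HGG controls (log2 fold change 6.15, SE 0.36, adjusted p = 0.001). Choroid plexus genes gave 1 lower call among 17, Sostdc1, a share near the 6.12% called lower of all tested genes. Their summed level was 8295, 5644 and 8979.7 in the EPN controls, against 123768, 3757 and 2513 in the HGG controls. Cldn2, a claudin of choroid plexus and kidney tubules, had 1816, 2084 and 1318 in EPN controls, against 372, 1.78 and 5.68 in HGG controls (adjusted p = 0.0512), with HGG control 1 above the other HGG controls as it was for Ttr. The call of Hydin held with any 1 library left out.

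Cell cycle genes gave 1 call among 34, a share below the 15.7% of all tested genes. The list had 34 tested genes, of which 1 was called higher and 0 lower in EPN controls, and its median log2 fold change was 0.45. Ccnd3, the D-type cyclin gene, had 4585, 4411 and 4193 in EPN controls, against 1434, 1328 and 675 in HGG controls (log2 fold change 2.01, SE 0.31, adjusted p = 0.0112). Ccnd1, another D-type cyclin gene, had 4122, 6519 and 6155 in EPN controls, against 6747, 5099.7 and 2222 in HGG controls (adjusted p = 0.595) and was not called. Mki67 had 1324, 2055 and 1346 in EPN controls, against 1904, 618 and 804 in HGG controls (adjusted p = 0.346). HGG control 1 had the highest summed level of the list. In a set of 5 libraries the call was lost for Ccnd3 without EPN control 1 or 2. There were 0, 0 and 1 higher calls without EPN control 1, 2 and 3, and 17, 1 and 1 without HGG control 1, 2 and 3.

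Hypoxia and immediate early genes, which respond to tissue handling as well as to biology, gave few calls. In both lists the share of calls was below the 15.7% of all tested genes. Hypoxia and glycolysis genes formed a single list. Higher calls in EPN controls numbered 0 and lower calls 1 among 25 tested genes, around a median log2 fold change of -0.078. The called gene was Slc2a3, a glucose transporter of neurons, with 165, 207 and 261 in EPN controls, against 831, 403 and 873 in HGG controls (log2 fold change -1.67, SE 0.35, adjusted p = 0.0273). Immediate early genes were counted as a list of their own. Among the 21 tested genes, 0 were called higher in EPN controls and 2 lower, with a median log2 fold change of -0.25. The called genes were Jund, with 762, 541 and 512 in EPN controls, against 1286, 1918 and 1730.0 in HGG controls (log2 fold change -1.44, SE 0.24, adjusted p = 0.0138), and Jun, with 844, 893 and 628 in EPN controls, against 2966, 1761 and 1463 in HGG controls (log2 fold change -1.34, SE 0.30, adjusted p = 0.0333). Markers of library quality also moved: Mir6236, a small RNA locus inside ribosomal sequence, had 173, 106 and 223 in EPN controls, against 1446, 2761 and 2484 in HGG controls (log2 fold change -3.74, SE 0.36, adjusted p = 0.00429). Lars2, which gathers reads of mitochondrial ribosomal RNA, had 1602, 2034 and 2422 in EPN controls, against 6787, 8003 and 8798 in HGG controls (log2 fold change -1.97, SE 0.22, adjusted p = 0.00555). The ribosomal precursor Rn45s had 6606, 5544 and 6418 in EPN controls, against 8403, 22939.7 and 16604 in HGG controls (adjusted p = 0.076). The fold change of a gene was also related to its GC content across 14838 genes, with a Spearman correlation of -0.247 as a description, since genes share libraries. With a correction for GC content and length 1842 genes were called, in place of 2339. The part of RNA quality in single results was not tested. Over 5 libraries, no call was made for Slc2a3 without any 1 of the EPN controls or without HGG control 3, for Jund without EPN control 2 or 3, and for Jun without any 1 of the EPN controls or without HGG control 2. Mir6236 and Lars2 were called in all 6 sets of 5 libraries. Beyond single libraries, the call was lost for Jund and Jun with the GC and length correction.

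The Sox9-GOF tumours give the same contrast in libraries that share no sample with the controls. Of 15219 genes tested there, 6160 were called between EPN Sox9-GOF and HGG Sox9-GOF tumours. Called in both contrasts in the same direction were 1491 genes, or 63.7% of the calls among controls and 24.2% of the calls among Sox9-GOF tumours, and 25 genes were called in opposite directions. With 6160 of 15219 genes called there in either direction, a large part of any set of genes would be called too. The overlap is a description. In Sox9-GOF tumours Nr5a1 (log2 fold change 11.37, SE 0.42, adjusted p = 2.12e-05), Olig2 (log2 fold change -3.88, SE 0.58, adjusted p = 0.00162) and Pdgfrb (log2 fold change 4.01, SE 0.30, adjusted p = 0.000138) had the same direction as in controls. The difference between the contrasts was called by limma for 938 of 15130 genes.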

How the data were processed

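RNA-seq libraries of mouse brain tumour tissue were compared, 3 labelled EPN control and 3 labelled HGG control. Per the labels' protocols, tissue was frozen in trizol and libraries were made from 300 ng of total RNA with a stranded poly(A) kit. The submitters' processing notes name DESeq2 1.30.1, STAR 2.5.0a and mm10. How the reads were counted, and on which strand and gene models, is not given in the sources used here. Antisense, overlapping and near-identical genes are therefore uncertain. The authors deposited a signal per gene, namely reads divided by a size factor per library, as the values show, and each table was normalized separately. Dividing each column by its smallest value above 0 gave whole reads for all values within 0.001 read. The 6 libraries were then rescaled by the median of ratios.

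The test was limma 3.58.1 with a trended variance in R 4.3.3 on log2(rescaled count + 1). The 14938 genes tested had a mean of 10 or more, and p was adjusted by Benjamini-Hochberg over all of them. Alternatives were edgeR 4.0.16 and DESeq2 1.42.0 on the reads, other scalings, pseudocounts and filters, a GC and length correction, a replicate block and leaving out each library. The scripts were tested on simulated data. Genes with 0 reads in a group have a lower bound (floor of 3 reads over the group), and genes with 1 to 3 reads a ratio of pooled reads with a 95% interval, both for counting error only. A further 27 genes carry dates in place of names and were tested unnamed. The 40 gene lists held 751 different genes, of which 657 were tested. Named genes were the 10 largest calls in each direction without overlap of the groups (mean log2 CPM 1 or more), up to 4 members per list by adjusted p, members of the Sox and driver lists, and Sox9, Nf1, Trp53 and Rela; further list members and other genes were chosen after their values were seen. A few genes that this rule takes in are not reported here. The members and lists were chosen with earlier results of these data known. The tables hold 0 columns of unused samples. Coordinates come from GENCODE on GRCm38, which is mm10.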

Additional observations from a re-analysis of the deposited data

Results flagged for a closer look

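For 14 of 165 named genes the difference between EPN and HGG tumours was not the same in Sox9-GOF tumours as in controls. The test was limma's interaction term over 12 libraries (Benjamini-Hochberg adjusted over 15130 genes). It was called for 938 of all 15130 genes, so the count of named genes is no finding. Each value is the log2 difference in Sox9-GOF tumours minus that in controls, in a test of 3 libraries per group. Most named genes were chosen by their values in the same controls. A smaller difference in Sox9-GOF tumours is thus favoured by the choice, and the values are a description. The difference was smaller or turned in Sox9-GOF tumours for genes higher in EPN controls: Sox9, the gene altered in these tumours (-1.37, SE 0.26, adjusted p = 0.0218), the receptor gene Tgfbr1 (-1.80, SE 0.36, adjusted p = 0.0228), the matrix genes Lum (-3.26, SE 0.79, adjusted p = 0.0396) and Col12a1 (-2.61, SE 0.64, adjusted p = 0.0414), the pericyte gene Rgs5 (-3.29, SE 0.70, adjusted p = 0.0267) and the microglia gene Gpr34 (-4.97, SE 0.96, adjusted p = 0.0218). Fdxr, of mitochondrial electron transfer, was further up (1.97, SE 0.41, adjusted p = 0.0264), as was Rela, which was not called among controls (1.42, SE 0.36, adjusted p = 0.0452). Of genes lower in EPN controls, Nfkbib (1.44, SE 0.29, adjusted p = 0.0228), Nptxr (5.13, SE 1.34, adjusted p = 0.0476), Jund (2.52, SE 0.28, adjusted p = 0.00826) and Mir6236 (4.43, SE 0.83, adjusted p = 0.0207) were higher relative to controls, and the precursor genes Ptprz1 (-2.91, SE 0.52, adjusted p = 0.0192) and Pcdh15 (-3.22, SE 0.65, adjusted p = 0.0247) were lower still. Within Sox9-GOF tumours the contrast for Sox9 was log2 fold change 0.62, SE 0.20, adjusted p = 0.0423.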

How the results depend on the processing

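The count of called genes stayed within 1.5 times of 2339 with TMM scaling (2337), the deposited scale of each table (2467), a pseudocount of 8 (2373), no filter on low values (2201), a minimum mean of 50 (2184), edgeR (2267, of which 2164 were shared) and a GC and length correction (1842). It was 4395 with DESeq2 (2192 higher and 2203 lower in EPN controls, 67 genes without an adjusted p), 4217 with the spread of all 15 libraries (2360 higher and 1857 lower), 1129 with the replicate number as a block (728 higher and 401 lower) and 1100 with the GC and length correction and the replicate block together (659 higher and 441 lower). With 1 library left out it ranged from 385 to 3635, with 286 to 1961 higher and 99 to 1674 lower. The causes were not tested. The labels give same-numbered EPN and HGG libraries no link other than the number. The correlations of their deviations from the group means were 0.24, -0.28 and -0.017. Whether same-numbered libraries share a batch was not tested, so the block is not read as a pairing. Of 134 called genes named in the text, 53 kept their call in every alternative in which they were tested, and 0 changed sign in any of these. Alternatives in which a gene fell below the filter were left out of this count. With a minimum mean of 50, for example, 120 kept their call and 0 lost it, and the rest were not tested. Unless said otherwise, losses given for single genes also cover only alternatives in which the gene was tested. Among named genes that were not called, the log2 fold change changed sign for Star with DESeq2 (0.19) and edgeR (0.18) and, with 1 library left out, lay between -0.68 and 0.30. For Mrpl23 it was 0.031 with that correction, with or without the block, and between -0.12 and 0.097 with 1 library left out. For Ccnd1 it lay between -0.10, without HGG control 3, and 0.71. A further limit is the spread of the 3 HGG controls, which differ in choroid plexus, neuron and lymphocyte RNA, and 3 libraries a group give each fold change a standard error that is large for genes that vary between them.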

Other observations

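Imprinted genes, which are expressed from 1 parental copy and many of which act in fetal growth, were read as a list of 23 chosen after values of some of them had been seen, and without a test of the list. Of 20 tested members, 8 were called higher and 0 lower in EPN controls, beside 9.54% higher and 6.12% lower of all tested genes. The 8 include both Igf2 and Igf2os, whose reads cannot be told apart with the strand setting unknown. Dlk1, a secreted relative of NOTCH ligands, had 8309, 16583 and 11593 in EPN controls, against 416, 26.6 and 29.7 in HGG controls (log2 fold change 7.37, SE 1.04, adjusted p = 0.00896). Grb10, an adaptor that restrains insulin signals, had 1981, 2924 and 2165 in EPN controls, against 90.6, 339 and 235 in HGG controls (log2 fold change 3.58, SE 0.48, adjusted p = 0.00799). Besides Igf2, Igf2r and Plagl1, the calls included the retrotransposon-derived gene Peg10 with 209.8, 368 and 397 in EPN controls, against 114, 142 and 134 in HGG controls (log2 fold change 1.27, SE 0.30, adjusted p = 0.0364). Cdkn1c, a cell cycle inhibitor, was not called, with 611, 4768 and 5397 in EPN controls, against 722, 174 and 80.8 in HGG controls (log2 fold change 3.52, SE 1.09, adjusted p = 0.0746), and HGG control 1 lay above EPN control 1. Meg3, the maternal partner of Dlk1, had 2473, 4659 and 3271 in EPN controls, against 2128, 10439 and 9165 in HGG controls (log2 fold change -0.81, SE 0.63, adjusted p = 0.411) and was not called. The calls of Dlk1 and Grb10 were lost without EPN control 2, that of Plagl1 without any 1 of the EPN controls, and that of Peg10 without EPN control 2 or 3 or any 1 of the HGG controls. The Peg10 call was also lost on the deposited scale and with the spread of all 15 libraries.

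Tnnt3 and Igf2 lie close together on chromosome 7, and genes within 300 kb of Igf2 were therefore listed after their values were seen. Of 15 genes found there 8 were tested. Besides Tnnt3 and Igf2, which prompted the list, and Igf2os, 1 was called higher, Ctsd, and none of the 8 was called lower. Ctsd had 28035, 48060 and 40598 in EPN controls, against 12330, 10519 and 19733 in HGG controls (log2 fold change 1.47, SE 0.37, adjusted p = 0.0445). The Ctsd call was lost without any 1 of the EPN controls or without HGG control 2. H19, the noncoding RNA next to Igf2 (chr7:142575529-142578143), had 2213, 42487 and 26995 in EPN controls, against 1699, 87.0 and 53.0 in HGG controls (log2 fold change 6.09, SE 1.61, adjusted p = 0.0504) and was not called. Igf2os, antisense to Igf2, had 1051, 1423 and 606 in EPN controls, against 14.0, 0 and 2.52 in HGG controls (log2 fold change 8.01, SE 0.97, adjusted p = 0.00621), and with the strand setting unknown its reads cannot be told apart from those of Igf2. Mrpl23 (chr7:142532686-142540747), between Tnnt3 and H19, had 374, 277 and 368 in the EPN controls, against 346, 352 and 346 in the HGG controls (log2 fold change -0.049, limma adjusted p = 0.879). Mrpl23 was thus not called.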
